A study of Mus musculus with 4 samples.

Results

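Activator protein 1 (AP-1) is a group of transcription factors that bind DNA as pairs through a basic region and a leucine zipper, and 10 of its genes were followed here: Fos, Fosb, Fosl1, Fosl2, Jun, Junb, Jund, Batf, Batf3 and Atf3. They were chosen by symbol from the 22558 genes of the deposited count table, which held all 10, and all 10 were among the 11711 genes that passed the filter on low counts. The cells were activated lung group 2 innate lymphoid cells (ILC2s), lymphocytes that lack antigen receptors and make IL-5 and IL-13. RNA sequencing libraries were made from 2 wildtype samples (C57BL/6, called WT 1 and WT 2) and 2 samples labelled ICAM-1 KO (ICAM-1 KO 1 and ICAM-1 KO 2, or the KO-labelled libraries), the latter on a C57BL/6 background and, per the study's methods, from the B6.129S4-Icam1 tm1Jcgr/J line. All mice were 6 weeks old and had received 3 intranasal doses of 0.5 µg rm-IL33, and each library was a pool of 4 mice, so no library shows unchallenged cells and the spread between single mice cannot be read.

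FOS proteins cannot pair with each other and bind DNA with a JUN partner, whereas JUN proteins can also pair among themselves. BATF and BATF3 have little beyond the basic region and zipper, pair with JUN proteins and bind together with IRF4 or IRF8, and ATF3 pairs with JUN proteins or itself. Many of these genes are immediate early genes, switched on within minutes of a stimulus without new protein, and in T helper cells AP-1 acts with NFAT at cytokine genes.

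For Icam1, the targeted gene, the count was 2579 and 2630 in WT, and 2812 and 3453 in the KO-labelled libraries. Its RNA was therefore not lower there (log2 fold change 0.33, adjusted p = 0.0745 from edgeR), and every direction given here rests on the label. A count over the whole gene does not show which exons the reads came from. The libraries held 24796148 to 28782471 counts on genes. All 16 ILC2 marker genes listed were measured, and Il1rl1, which encodes the IL-33 receptor, had 626 to 774 normalized counts in the 4 libraries. A normalized count is the authors' value, the count plus 1 scaled so that each library has the same upper quartile. Markers of other cells were present, and no listed marker was at 0 in all 4 libraries. The summed normalized count of 9 T cell markers, of which 6 were higher and 0 lower with an adjusted p under 0.05 (called, in what follows, by the count test of edgeR), was 344 and 433 in WT against 734 and 899.5. That of 7 macrophage and monocyte markers (5 higher) was 233 and 250 against 495 and 751, that of 8 endothelial markers (8 higher) 121 and 127 against 321 and 331, and that of 6 B and plasma cell markers (4 higher) 229.9 and 377 against 566 and 682. Of the 7 alveolar epithelial markers 4 could be tested and 3 were higher, and their sum was 68.5 and 35.3 against 390.1 and 801. The 6 eosinophil markers, of which 5 could be tested, had 2 higher and 2 lower. Their sum was lower, at 112 and 98.1 in WT against 52.9 and 70.5. The ILC2 markers summed to 9617 and 10389 in WT and to 8183 and 8307 in the KO-labelled libraries, with 2 called higher and 6 lower. In bulk RNA fewer cells of a type and less RNA per cell cannot be told apart, and the part of these cells in the values below was not tested.

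Some of the genes are neighbours in the mouse genome (mm10, coordinates as deposited). Fos (chr12:85473890-85477273, plus strand) and Batf (chr12:85686669-85709087, plus strand) were 209.4 kb apart, and Batf3 (chr1:191097847-191108945, plus strand) and Atf3 (chr1:191170296-191218039, minus strand) 61.4 kb. The promoters of Batf, Fos, Atf3 and Junb are shown, since Batf was the gene that passed the test, Fos is its neighbour, Atf3 was the other gene whose groups did not overlap and Junb was the most abundant. Each is the 250 bases before the RefSeq start (GRCm38.p6), written 5′ to 3′ on the gene's strand, at chr12:85686470-85686719 (plus strand), chr12:85473640-85473889 (plus), chr1:191183334-191183583 (minus) and chr8:84978749-84978998 (minus). Capitals mark TGACGT, the core of the cyclic AMP response element to which ATF and CREB factors bind, on either strand (ACGTCA on the other), and TATAAA, the TATA box, on the given strand.
Batf: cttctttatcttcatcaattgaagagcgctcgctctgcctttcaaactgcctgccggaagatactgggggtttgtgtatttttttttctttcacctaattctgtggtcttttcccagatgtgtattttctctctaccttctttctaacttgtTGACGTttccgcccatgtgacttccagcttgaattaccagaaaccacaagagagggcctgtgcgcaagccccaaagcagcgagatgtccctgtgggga
Fos: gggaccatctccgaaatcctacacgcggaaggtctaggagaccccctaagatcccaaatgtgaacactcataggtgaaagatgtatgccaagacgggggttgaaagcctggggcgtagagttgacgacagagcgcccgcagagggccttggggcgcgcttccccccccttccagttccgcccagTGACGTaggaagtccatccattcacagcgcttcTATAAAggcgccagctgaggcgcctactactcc
Atf3: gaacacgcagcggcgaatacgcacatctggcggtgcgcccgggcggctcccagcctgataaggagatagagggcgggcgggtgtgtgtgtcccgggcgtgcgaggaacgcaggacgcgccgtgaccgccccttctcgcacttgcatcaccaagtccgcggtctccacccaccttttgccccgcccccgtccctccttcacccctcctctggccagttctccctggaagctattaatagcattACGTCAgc
Junb: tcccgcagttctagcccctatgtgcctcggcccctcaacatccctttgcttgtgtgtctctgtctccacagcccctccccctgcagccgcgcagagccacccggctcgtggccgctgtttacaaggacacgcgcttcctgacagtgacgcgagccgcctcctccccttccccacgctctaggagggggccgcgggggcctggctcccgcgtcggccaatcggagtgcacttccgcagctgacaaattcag
A promoter was matched for 9 of the 10 genes, all but Fosl1. TGACGT was found in Batf, Fos and Atf3, 3 of the 9, and in 6.47% of all 32851 promoters over the same 250 bases. Its first base lay 98, 66 and 8 bases before the start of Batf, Fos and Atf3. TATAAA was found in Fos alone of the 9, and in 7.59% of all promoters. The full cyclic AMP response element TGACGTCA, which contains the core, was found in none of the 9 and in 1.55% of all promoters. The AP-1 element TGACTCA, searched on both strands, was found in none of the 9 and in 4.46% of all. The RefSeq start of Atf3 lay 34706 bases inside the gene as the deposited table gives it. That of Jund lay 1210 bases before the deposited gene, and those of Fosl2 and Batf3 lay 671 and 567 bases inside. The counts over the 9 promoters depend on these starts. The motifs were chosen after the sequences had been seen, and a match describes letters in a window, not a bound site.

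Scaled by length, as normalized counts per kilobase of exon, Junb was the main AP-1 transcript of these cells. It stood at 836 ± 122 (SD, n = 2 libraries) in WT and at 714 ± 86.5 (n = 2) in the KO-labelled libraries, which was 54.5% to 57.2% of the summed AP-1 level in each library. Jund (184 ± 49.1 and 163 ± 25.0), Fos (171 ± 56.9 and 147 ± 13.2), Jun (95.4 ± 16.1 and 116 ± 16.0), Batf (105 ± 1.30 and 74.97 ± 0.205) and Atf3 (70.6 ± 11.9 and 55.4 ± 4.18) followed on the same scale. The last 4 were Fosl2 (17.2 ± 0.734 and 16.3 ± 0.933), Fosb (10.0 ± 4.56 and 10.3 ± 1.62), Fosl1 (3.15 ± 0.902 and 3.50 ± 0.296) and Batf3 (1.45 ± 0.415 and 2.10 ± 0.726).

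Junb, Atf3, Fosl2 and Fosb each lay above the next gene in this order with ranges over the 4 libraries that did not overlap, and so did Fos above Jun. The ranges of Jund and Fos, of Jun and Batf, of Batf and Atf3 and of Fosl1 and Batf3 overlapped. Jun and Batf changed places between libraries, with Batf above Jun in WT 2 alone on this scale. With the longest annotated transcript as the length, Fos came before Jund and Batf before Jun, and Fosb stood at 16.6 in WT and 16.9 in the KO-labelled libraries in place of 10.0 and 10.3. The 3 JUN genes together made 74.4% and 74.98% of the AP-1 level per kilobase in WT and 75.4% and 76.98% in the KO-labelled libraries. The JUN shares did not overlap between the labels. With 2 libraries per label this is common: by normalized count, 31.3% of all genes tested lay lower and 28.3% higher without overlap. The 4 FOS genes made 14.6% and 12.1% in WT and 13.8% and 13.4% in the others, which lay between the WT values. The 2 BATF genes made 6.28% and 8.21% against 6.38% and 5.52%, which overlapped, and Atf3 made 4.71% and 4.74% against 4.38% and 4.15%, which did not. The shares of a library sum to 100%, so a lower share of some genes raises that of the others, and no share was tested.

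**Figure D1:**
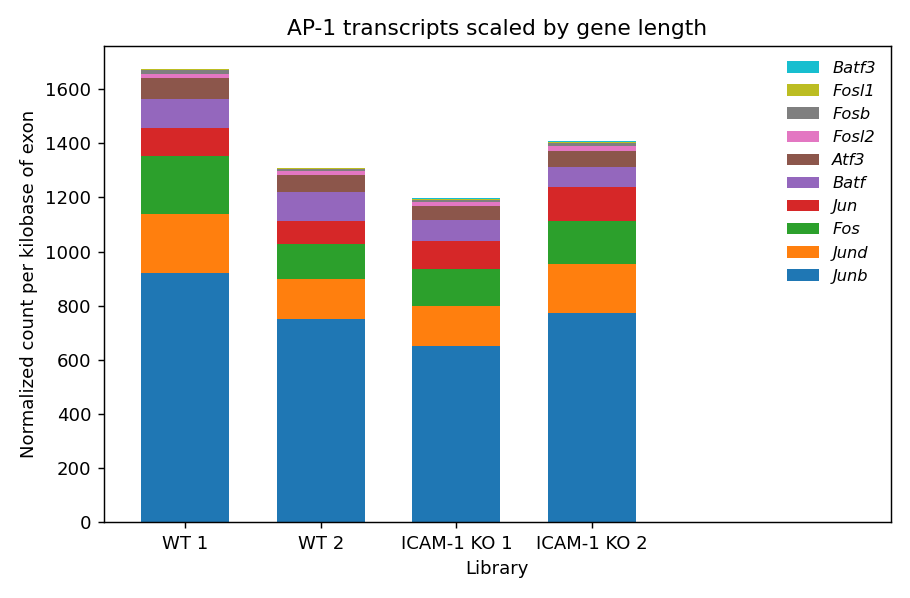
Level of each AP-1 gene (y axis, normalized count per kilobase of exon, stacked by gene) in each of the 4 libraries (x axis). The summed level was 1676 in WT 1, 1310.3 in WT 2, 1197 in ICAM-1 KO 1 and 1407 in ICAM-1 KO 2, and Junb made more than any other gene in every library.

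Between the labels, 1 of the 10 AP-1 genes was lower in the KO-labelled libraries with an adjusted p under 0.05, where 4.97% of all genes tested were lower by this rule. In edgeR 0 of the 10 were higher, against 8.80% of all genes, and DESeq2 and limma also called 0. In edgeR 1 of the genes with a positive change, Jun, had an unadjusted p under 0.05. In either direction 3 of the 10 genes had such a value, as did 3542 of the 11711 genes tested. A call in edgeR together with a 2-fold change or more was found for 0 of the 10 and for 5.47% of all genes, and the log2 fold changes of the 10 stayed between -0.46 and 0.57. Both KO-labelled libraries lay below both WT libraries for 2 of the 10 (31.3% of all genes) and above both for none (28.3% of all genes). The median log2 fold change of the 10 genes was -0.10 against 0.01 for all genes tested, with 6 values below and 4 above 0. For 8 of the 10 the larger of the gaps within WT and within the KO-labelled libraries exceeded the gap between the label means. The share of all genes for which this holds was not counted, so the 8 cannot be read as particular to AP-1.

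Batf, which encodes the BATF partner of JUN proteins, was the gene that fell. Its estimated count was 4429 and 4699 in WT, and 3030 and 3314 in the KO-labelled libraries. Its normalized count was 146 in WT 1, 149 in WT 2, 105 in ICAM-1 KO 1 and 106 in ICAM-1 KO 2. The libraries of each label lay almost on the same value and the groups did not overlap. From 148 ± 1.82 (SD, n = 2 libraries) to 105 ± 0.288 (n = 2), it fell by 27.2% (95% interval from -36.9% to -16.0% as a change), a log2 fold change of -0.46 with a standard error of 0.0914 and a Benjamini-Hochberg adjusted p of 0.0142 over all genes by the quasi-likelihood test of edgeR. No annotated gene overlaps Batf. Without WT 1 the adjusted p was 0.0535 and without WT 2 it was 0.0624, with log2 fold changes of -0.47 and -0.45, so the size held and the call did not. Between the same libraries the summed ILC2 markers were also lower, and so were the summed eosinophil markers. Of the 16 ILC2 markers, 6 were called lower (Id2, Il2ra, Arg1, Il5, Il13 and Calca) and 2 higher (Klrg1 and Ptprc). The other 8, among them Gata3, Rora, Il1rl1, Il7r and Thy1, did not pass. These markers were named after their values were seen. Their sum is weighted by the most abundant genes, and Il5 and Il13 are also in the AP-1 target list below. The summed T cell, macrophage and endothelial markers were higher. The part of all these cells in the fall of Batf was not tested. Batf3, its close relative, was rare, counted 55 and 87 times in WT and 72 and 130 times in the KO-labelled libraries. The groups overlapped, and its log2 fold change of 0.57 had a 95% interval from -0.47 to 1.62 (adjusted p = 0.444 from edgeR), which holds both 0 and a 2-fold change. The libraries of a label differed by a factor of 0.663 (WT 1 over WT 2) and 1.65 (ICAM-1 KO 2 over ICAM-1 KO 1).

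Atf3, a stress-induced member that can also repress transcription, had 170.1 and 134 normalized counts in WT and 113 and 126 in the KO-labelled libraries. Both KO-labelled libraries lay below WT 2, but WT 1 stood further from WT 2 than WT 2 did from ICAM-1 KO 2. Its log2 fold change was -0.32 (95% interval from -0.61 to -0.03, unadjusted p = 0.0335, adjusted p = 0.128 from edgeR) and did not pass the threshold. Without WT 1 it was -0.14. The misc_RNA gene Gm24748 lies within Atf3.

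**Figure D2:**
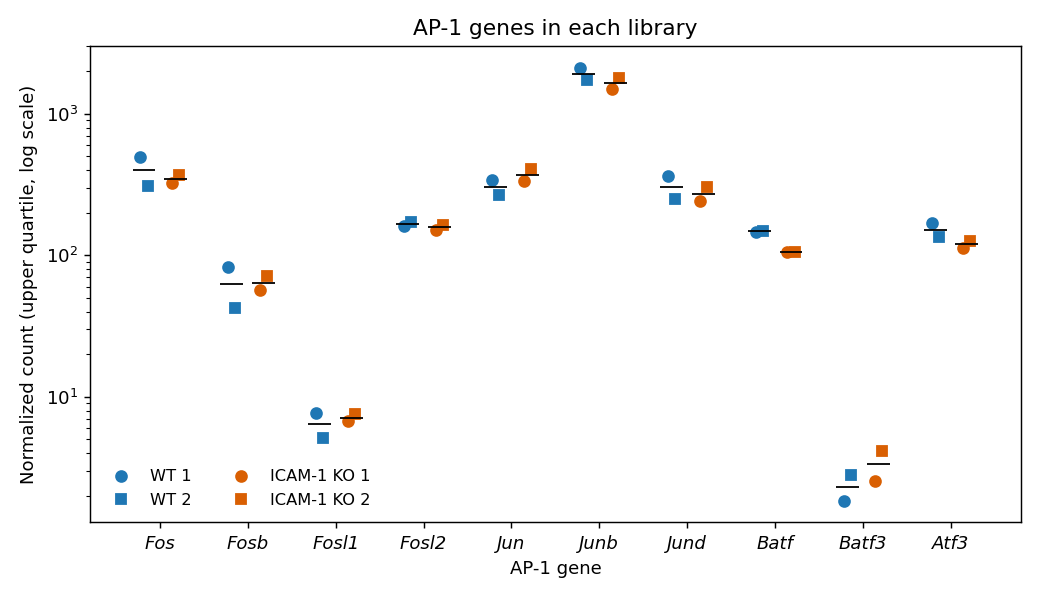
Normalized count (y axis, log scale) of the 10 AP-1 genes (x axis) in the 4 libraries, with circles for library 1 and squares for library 2 of each label and black lines for the label means. Batf lies at 146 and 149 in WT and at 105 and 106 in the KO-labelled libraries, whereas the WT circle and square are far apart for Fos and Fosb.

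Of the JUN genes, none passed the threshold and the 3 did not share a direction. Jun had 340.4 and 268 normalized counts in WT and 334 and 406 in the KO-labelled libraries, so that ICAM-1 KO 1 lay within the WT values. Its log2 fold change was 0.31 (95% interval from 0.01 to 0.62, unadjusted p = 0.0462, adjusted p = 0.157 from edgeR). Without ICAM-1 KO 1 it was 0.46 with an adjusted p of 0.0257 in edgeR, the single one of 11 alternatives in which Jun was called. Junb, whose protein restrains or replaces JUN depending on the gene, had 2121 and 1725 normalized counts in WT and 1502 and 1783 in the others (log2 fold change -0.20, 95% interval from -0.48 to 0.08). Jund, the JUN gene that resting cells also express, had 364 and 248 against 243 and 302 (log2 fold change -0.14, 95% interval from -0.53 to 0.25). The groups of all 3 genes overlapped. Junb overlaps Prdx2 on the other strand over 351 bases, Jun overlaps the antisense gene Junos and Jund overlaps Gm11175. The sources used here do not say whether reads were assigned by strand, so reads in the shared parts cannot be told apart. Junos had at most 14.4 counts and Gm11175 at most 71.2 counts in a library, whereas Prdx2 had 3982 to 6843 counts beside 43263 to 64234 for Junb.

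None of the 4 FOS genes passed the threshold in edgeR, DESeq2 or limma or had an unadjusted p under 0.05 in edgeR, and the groups of all 4 overlapped. Fos had 497 normalized counts in WT 1 and 308 in WT 2, and the values of 323 and 367 in the KO-labelled libraries lay between them. Its log2 fold change was -0.20 with a standard error of 0.187 and an adjusted p of 0.525 from edgeR, and without WT 1 it was 0.19. Fosb, which many stimuli induce together with Fos, was at 82.8 and 42.6 in WT and at 56.9 and 71.3 in the others. WT 1 was 1.94 times WT 2 for Fosb and 1.62 times WT 2 for Fos, the largest ratios of WT 1 over WT 2 among the 10 genes. Fosl2, which encodes FRA-2, was the steadiest FOS gene, at 162 and 172 in WT and at 151 and 164 in the others. Its log2 fold change of -0.06 had the narrow 95% interval from -0.27 to 0.16, and it was counted 4350 to 5427 times per library. Fosl1, which encodes FRA-1, was rare at 7.69 and 5.10 against 6.70 and 7.55 normalized counts (log2 fold change 0.19, 95% interval from -0.53 to 0.91), and Ccdc85b overlaps it on the other strand over 2766 bases. Ccdc85b had 160, 141, 164 and 253 counts in WT 1, WT 2, ICAM-1 KO 1 and ICAM-1 KO 2, close to the 232, 160, 192 and 236 of Fosl1, so the values of Fosl1 are uncertain. For 9 of the 10 genes the 95% interval lay within a 2-fold change in either direction, and the exception was Batf3.

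**Figure D3:**
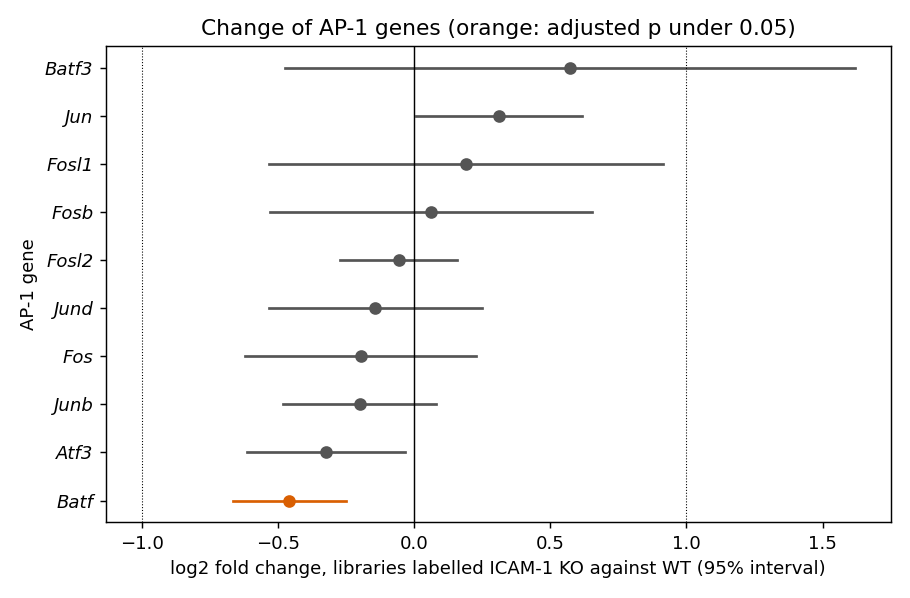
Log2 fold change of each AP-1 gene (x axis, KO-labelled libraries against WT) with its 95% interval from edgeR, ordered by value, with dotted lines at a 2-fold change. Batf at -0.46 is the gene with an adjusted p under 0.05, and the interval of Batf3 reaches 1.62.

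Libraries of the same label differed in most AP-1 genes at once. WT 1 was above WT 2 for 7 of the 10 genes, all but Fosl2, Batf and Batf3, and ICAM-1 KO 2 was above ICAM-1 KO 1 for all 10. Among all genes tested these shares were 48.8% and 51.3%. Both held for 7 of the 10 AP-1 genes, against 25.3% of all genes. The median size of the gap between WT 1 and WT 2 was 0.45 on the log2 scale over the 10 genes, against 0.15 over the 8919 genes whose mean normalized count reached 10. Between ICAM-1 KO 2 and ICAM-1 KO 1 it was 0.22 over the 10 genes, against 0.14 over those genes. Fosl1 and Batf3 did not reach a mean of 10, and their log2 ratios of WT 1 over WT 2 were 0.59 and -0.59. Over all genes tested, without that limit, the median size of the WT gap was 0.18. The log2 ratios of Batf, -0.03 for WT 1 over WT 2 and 0.01 for ICAM-1 KO 2 over ICAM-1 KO 1, were the smallest in size among the 10 genes. These counts were made after the values had been seen and carry no test.

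**Figure D4:**
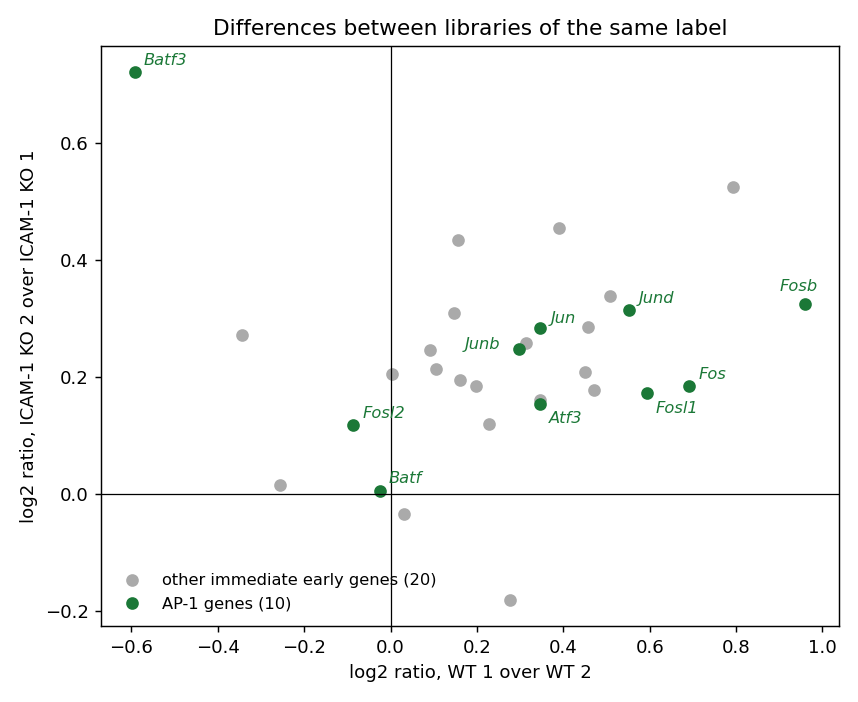
Log2 ratio of WT 1 over WT 2 (x axis) and of ICAM-1 KO 2 over ICAM-1 KO 1 (y axis) for the 10 AP-1 genes (green) and 20 other immediate early genes (grey). Of these, 7 AP-1 genes and 16 other immediate early genes lie above 0 on both axes, and Batf lies close to 0 on both.

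The genes whose pattern over the 4 libraries was most like that of Batf were Ptcd3, Wdr74 and Polr2i, with a root mean square distance of 0.00879, 0.0123 and 0.014 on the log2 scale after centring. A distance under 0.05 from Batf was found for 122 of 8918 genes. Nearest to Atf3 were Emc10, Serpinb1a and Ccne1, at 0.0168, 0.0197 and 0.0217, and 35 genes were within 0.05. With 4 libraries such likeness describes these libraries only.

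In 9 lists of genes that act with or around AP-1, 102 of 109 distinct genes were tested, of which 13 (12.7%) were higher and 11 (10.8%) lower with an adjusted p under 0.05 in edgeR, beside 8.80% and 4.97% of all genes tested. Their median log2 fold change was 0.13, and the counts of single lists below are to be read against the same shares of all genes. The lists were chosen with earlier results of these data known, so a larger share than that of all genes is not a result about them. Of 18 kinases on the paths to AP-1, 1 was higher, 1 lower and 16 did not pass. Map3k8, the kinase TPL2 that activates MAP kinase signalling after receptor engagement, fell from 119.7 and 127 normalized counts to 74.6 and 71.8 (log2 fold change -0.73, adjusted p = 0.00306). Map3k1, which acts upstream of the JNK kinases, rose from 22.2 and 25.8 to 41.2 and 42.1 (log2 fold change 0.82, adjusted p = 0.0106). The adjusted p of Map3k1 was 0.0553 without WT 1 and 0.051 with no filter on low counts.

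Of 9 factors that act on the Fos and Jun genes, 1 was higher, 1 lower and 7 did not pass. Mef2c, a MADS-box factor also made by endothelial and B cells, rose from 5.12 and 9.28 to 26.1 and 24.0 normalized counts (log2 fold change 1.82, adjusted p = 0.00418), beside the rise of the endothelial markers given above. The sort took CD45+ cells negative for a lineage mix that includes CD45R, a gate meant to leave endothelial and B cells out. Elk3, a partner of serum response factor, fell from 92.1 and 88.2 to 70.6 and 62.3 (log2 fold change -0.41, adjusted p = 0.0385). For Elk3 the adjusted p was 0.0925 with no filter, 0.132 without WT 1, 0.0962 without WT 2 and 0.183 without ICAM-1 KO 2. Of 6 genes for the turnover of FOS and JUN proteins, edgeR, DESeq2 and limma each called 0. In edgeR 2 of them, the ubiquitin ligase genes Fbxw7 and Cop1 (named after their values were seen), had an unadjusted p under 0.05. So did 3542 of the 11711 genes tested, and such a value does not set these 2 apart. Gsk3b, a kinase gene and the most abundant of this list, was at 63.8 and 66.3 against 70.2 and 67.7. Of 6 genes that act on the decay of AU-rich messenger RNA such as that of Fos, 1 passed. Hnrnpd, which encodes AUF1, fell from 261 and 277 to 185 and 197 (log2 fold change -0.47, adjusted p = 0.0118, and 0.0653 without WT 2), whereas Zfp36l2 was at 283 and 227 against 229 and 237.

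Of the 7 genes for partners of BATF and JUN on composite sites, 2 were higher and 5 did not pass. Nfatc1 rose from 71.9 and 75.9 to 98.7 and 100.3 normalized counts (log2 fold change 0.46, adjusted p = 0.0212) and Nfatc3 from 96.3 and 109 to 146 and 128 (log2 fold change 0.44, adjusted p = 0.0301). Both encode NFAT factors that bind beside AP-1, and with no filter on low counts their adjusted p was 0.0885 and 0.121. The call for Nfatc1 was lost without WT 1 (0.0876), WT 2 (0.0619) or ICAM-1 KO 2 (0.0702), and that for Nfatc3 without WT 1 (0.133), WT 2 (0.0565) or ICAM-1 KO 1 (0.119). Irf4, named after its values were seen, encodes the partner that BATF needs at many sites in lymphocytes and was at 97.0 and 166 against 82.8 and 88.3 (log2 fold change -0.59, adjusted p = 0.0923). Gata3, the most abundant of the list, was at 537 and 493 against 425 and 489 and did not pass. Of 16 other bZIP genes tested, Nfil3 alone passed and was lower, at 235 and 271 against 188 and 200 (log2 fold change -0.36, adjusted p = 0.0473). Nfil3 encodes a bZIP factor that innate lymphoid cell development needs. Its adjusted p was 0.0956 with no filter, 0.056 without WT 1, 0.215 without WT 2 and 0.164 without ICAM-1 KO 1. Crem, the most abundant of these genes by the mean over all 4 libraries but below Nfil3 in both WT libraries, was at 148 and 246 against 244 and 264 and did not pass.

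Of 20 other immediate early genes, 5 were higher, 1 was lower and 14 did not pass. Btg2, an antiproliferative gene, rose from 93.0 and 111 normalized counts to 308 and 312 (log2 fold change 1.63, adjusted p = 0.000131). Dusp2, a phosphatase gene that shuts off MAP kinases, rose from 24.2 and 23.7 to 43.0 and 42.0 (log2 fold change 0.86, adjusted p = 0.00705). Ppp1r15a, a stress gene that restarts translation, rose from 249.7 and 234 to 326 and 387 (log2 fold change 0.59, adjusted p = 0.00949, and 0.0641 without WT 2). The other called genes of this list, named after their values were seen, were Egr1 (log2 fold change 0.56, adjusted p = 0.0342), Ier3 (0.49, adjusted p = 0.0428) and Myc, which fell (log2 fold change -0.45, adjusted p = 0.0417). Without WT 1 the adjusted p was 0.0865 for Egr1, 0.097 for Ier3 and 0.168 for Myc, and without WT 2 it was 0.161, 0.154 and 0.0748. Egr1 (0.142) and Ier3 (0.226) also lost the call without ICAM-1 KO 2, and Myc (0.185) without ICAM-1 KO 1. Nfkbia, the most abundant, was at 1401 and 1127 against 971 and 1161. The list as a whole was at 5031 and 4113 summed normalized counts in WT and at 4373 and 5148 in the others. These sums overlapped and ordered the libraries of each label as Fos, Jun, Junb and Jund did.

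Of 8 heat shock genes, which cells also induce while a tissue is taken apart, 2 were higher and 2 lower. Hspa1a rose from 3.90 and 3.34 to 20.9 and 19.0 (log2 fold change 2.50, adjusted p = 0.0011) and Hspa1b from 8.40 and 6.41 to 34.1 and 34.1 (log2 fold change 2.24, adjusted p = 0.000634). Both are near-identical copies of an HSP70 gene between which reads can be split, so the value of each alone is uncertain. The mitochondrial chaperone genes Hspe1 (182 and 211 against 137 and 135, adjusted p = 0.0141) and Hspd1 (494 and 544 against 385 and 356, adjusted p = 0.0121, named after its values were seen) fell, and without WT 2 their adjusted p was 0.0773 and 0.0764. Hspa8, the most abundant, was at 2198 and 2226 against 1908 and 1528. The part of tissue handling in the AP-1 levels was not tested.

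Of 16 textbook target genes of AP-1, 12 could be tested, of which 2 were higher, 4 lower and 6 did not pass. The 4 were cytokine genes. Il5 fell from 1039 and 1252 to 668 and 656 (log2 fold change -0.76, adjusted p = 0.00274) and Il13 from 31.6 and 35.2 to 11.1 and 12.9 (log2 fold change -1.45, adjusted p = 0.00247). Csf2 (log2 fold change -0.57, adjusted p = 0.0352) and Il6 (log2 fold change -0.76, adjusted p = 0.0307), named after their values were seen, also fell. The adjusted p of Csf2 was 0.18 without WT 1 and 0.06 without ICAM-1 KO 1, and that of Il6 was 0.16 without WT 2. Spp1, a matrix protein gene of macrophages, rose from 9.51 and 12.9 to 27.3 and 59.4 (log2 fold change 1.99, adjusted p = 0.00961, and 0.0673 without WT 1). Mmp9, a gelatinase gene of neutrophils and macrophages, rose from 10.3 and 7.95 to 21.9 and 21.4 (log2 fold change 1.28, adjusted p = 0.00869). The macrophage marker sums given above moved the same way as these 2, and so did the neutrophil markers, with 64.0 and 70.4 against 157 and 116. Of the 24 genes called in the 9 lists, 9 were called in all 11 alternatives, namely Btg2, Dusp2, Hspa1a, Hspa1b, Il13, Il5, Map3k8, Mef2c and Mmp9.

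**Figure D5:**
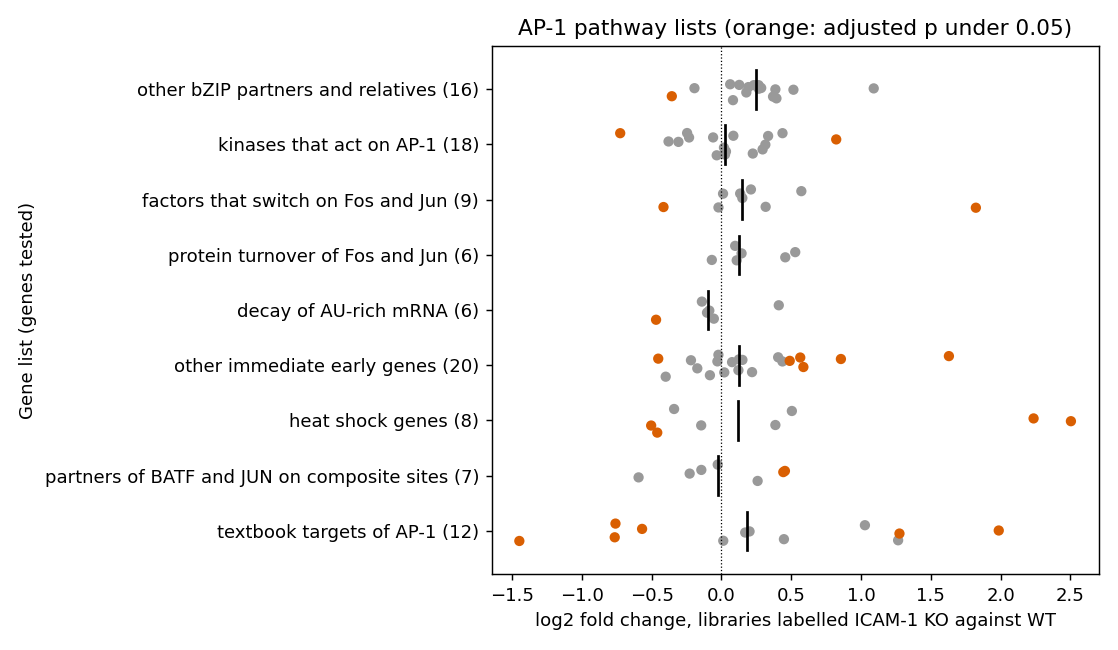
Log2 fold change (x axis, KO-labelled libraries against WT) of each gene tested in the 9 lists (y axis, with the number tested), with black bars at the list medians and genes with an adjusted p under 0.05 in orange. The medians run from -0.09 for the decay of AU-rich mRNA to 0.25 for other bZIP genes, beside 0.01 for all genes tested.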

How the data were processed

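RNA of sorted lung ILC2s (lineage-negative CD45+ ST2+ CD127+) was sequenced in 2 WT and 2 ICAM-1 KO libraries, grouped by their labels. Per the study's methods, the authors aligned reads with STAR to mm10 and used the GENCODE M20 annotation. The deposited values are estimated counts per gene. The deposit, not the methods, names Partek's E/M method for them, which splits reads that fit several genes. Totals were 24796148 to 28782471 counts per library. The study's methods name STAR 2.6.1d, whereas the submitters' processing notes name STAR 3.5.3 and CASAVA 1.8.2. The deposited normalized signal is the estimated count plus 1, times 1 factor per library that brings the upper quartile to 41.9.

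The test was that of edgeR 4.0.16 in R 4.3.3 on estimated counts, each rounded to the nearest whole number (quasi-likelihood, upper quartile factors, Benjamini-Hochberg adjustment over 11711 genes, called at an adjusted p under 0.05). Genes with a normalized count below 1 on average or below 10 in sum were left out, as in the study's methods. Every adjusted p in the text is from edgeR unless DESeq2 1.42.0 or limma 3.58.1 is named. Fold changes are edgeR estimates with factors computed on the genes tested, so they differ somewhat from ratios of the deposited normalized counts. Intervals are 95% and not adjusted. The labels do not say whether libraries of 1 group came from separate days, so p-values measure the spread between pools only. The scripts were tested on simulated data.

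The AP-1 genes and the 9 pathway and 12 marker lists were chosen with earlier results of these data known. Named in each pathway list were up to 3 genes of the largest change among those called with groups that do not overlap, and the most abundant gene; for the 2 AP-1 genes of lowest p, the 3 genes nearest in pattern. Genes named outside this rule are marked. A gene that this rule names is not reported here. Of the marker lists whose calls are not given with the results, those of NK cells had 1 of 3 tested genes higher, dendritic cells 2 of 3 and neutrophils 3 of 4. For basophils and mast cells (5 genes) and for fibroblasts and smooth muscle (5 genes) edgeR called 0, while DESeq2 called 1 and 0 and limma 0 and 0. Each of these 2 lists had 1 unadjusted p under 0.05 in edgeR, beside 3542 among the 11711 genes tested. Promoters are RefSeq sequences of GRCm38.p6. Exon lengths and overlapping genes came from the GENCODE release after M20, in which 21873 of the 22558 genes had the deposited coordinates. Of the AP-1 genes, Fosl1 alone did not. Alternatives were TMM factors, the legacy form of the test, other filters, a replicate block, each library left out, DESeq2, limma and another gene length.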

Additional observations from a re-analysis of the deposited data

How the results depend on the processing

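With 2 libraries per label, calls depended on single libraries and on the filter. The count of all genes called lower, 582, was 201 with no filter on low counts and 930 with DESeq2, and 158 to 388 when 1 library was left out. The count called higher, 1030, was 334 with no filter and 479 to 948 with 1 library left out. Of the AP-1 genes, 0 to 1 were called lower and 0 to 1 higher with 1 library left out (Batf lost without either WT library, Jun gained without ICAM-1 KO 1), and the other 7 alternatives gave 1 and 0. In the pathway lists 11 lower and 13 higher calls became 5 and 6 with no filter, and the lower calls ran from 4 to 11 with 1 library left out. The log2 fold changes that changed sign did so with 1 library left out, and ranged from -0.50 to 0.19 for Fos, -0.34 to 0.62 for Fosb, -0.082 to 0.51 for Fosl1, -0.13 to 0.010 for Fosl2 and -0.39 to 0.16 for Jund. In these fits the lone library is assumed to vary like those of the other label. Batf kept log2 fold changes of -0.50 to -0.46 and adjusted p-values of 0.000345 to 0.0464 under the 7 alternatives that left no library out. The fit with the replicate number as a block gave 638 lower and 1077 higher genes and an adjusted p of 0.0148 for Batf, and called the same AP-1 gene. The labels do not tie the numbers to shared animals, and same-numbered libraries did not deviate together (correlation -0.07), so the pairing was not used. Batf3 and Fosl1 had the lowest counts, 55 to 236 per library, and the largest standard errors, 0.462 and 0.319, and the part of depth in them was not tested. Gene lengths changed levels per kilobase but no test. The cause of these changes was not tested. With no filter more genes enter the adjustment, and the upper quartile factors and dispersions are computed anew on the genes kept. The log2 fold change was then -0.50 in place of -0.46 for Batf and 0.26 in place of 0.31 for Jun.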
